A study of Rattus norvegicus with 21 samples.

Results

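The genes described here are 8 transcripts that glucocorticoids are known to induce, measured in the rat dentate gyrus: Sgk1, Nfkbia, Ddit4, Errfi1, Tsc22d3, Klf9, Zbtb16 and Cdkn1a. They were chosen by name, with earlier results of these data known. The annotation gave each of them 1 probe set with a single gene symbol, and they are 8 of 14506 genes so annotated. Counts of the 8 set beside shares of all genes are therefore descriptions, with no test of enrichment. All 8 were bright enough to be among the 10804 genes tested. RNA of the dentate gyrus was hybridised to Affymetrix arrays from 18 wild-type male Wistar rats aged 2 months, 3 in each of 6 groups. Control animals were neither stressed nor treated. The stress group had 6 weeks of uCMS, unpredictable chronic mild stress, a schedule of varied mild stressors used in rodents to model features of depression. The other 4 groups had the same 6 weeks of uCMS and received a daily intraperitoneal injection of an antidepressant in the last 2 weeks. These were fluoxetine (10 mg/kg in water), a blocker of serotonin reuptake, imipramine (10 mg/kg in saline), a tricyclic blocker of monoamine reuptake, tianeptine (10 mg/kg in saline), a tricyclic of another mode of action, and agomelatine (40 mg/kg in hydroxyethylcellulose), an agonist of melatonin receptors. The labels describe injections for the drug groups alone, so drug and injection cannot be told apart in a drug group against the stress group. Each control animal was measured on a first and a repeat array, whose values were averaged, so 21 arrays gave 18 values per gene. All levels below are log2 values, on which a difference of 1 is a doubling of signal, and a level of 1 gene is not set against that of another because probe sets differ in brightness.

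Glucocorticoid hormones, released by the adrenal gland in stress and in a daily rhythm, enter cells and bind the glucocorticoid and mineralocorticoid receptors, which then act as transcription factors on DNA elements of target genes. The dentate gyrus carries both receptors. Several target genes act as brakes: Nfkbia encodes IkappaB-alpha, which holds NF-kB in the cytoplasm, Ddit4 (REDD1) an inhibitor of the growth kinase complex mTORC1, Errfi1 (MIG6) an inhibitor of ErbB receptor kinases, Tsc22d3 (GILZ) a leucine zipper protein that damps inflammatory transcription factors, and Cdkn1a (p21) an inhibitor of cyclin-dependent kinases. Sgk1 encodes a protein kinase that regulates ion channels and transporters, and Klf9 and Zbtb16 (PLZF) encode transcription factors. Sgk1, Nfkbia, Ddit4 and Cdkn1a also respond to signals other than glucocorticoids, such as growth factors, NF-kB, low oxygen and p53.

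Cell type markers were read to describe the tissue. With no other tissue to compare, their levels cannot check the tissue label. The granule neuron markers Prox1 and C1ql2 had mean levels of 11.54 and 11.70 over all animals, and 4 of the 7 granule neuron markers were tested, Dsp and Dock10 having no probe set with a single symbol and Tdo2 lying below the filter. Markers of other cells were present as well. The agomelatine animals differed from all others in 2 of these lists: scores, the mean level of a list's genes minus their mean over all animals, ran from 0.412 to 0.751 for 10 oligodendrocyte genes (at most 0.0508 in the other 15 animals) and from -0.374 to -0.232 for 4 granule neuron genes (at least -0.0889 in the others). Agomelatine 1 also had a choroid plexus score of 3.46 over 4 genes, against at most 1.08 (stress 1) elsewhere. Of 11 choroid plexus markers 10 had a probe set with a single symbol and 4 were tested, the rest lying below the filter. That filter, at 7.165, uses the mean over all animals, agomelatine 1 included. Kl passed it at 7.185 and had a mean of 6.90 in control, so the genes of this score were partly selected by the animals high in it. Agomelatine 1 and 2 had scores of 0.709 and 0.635 over 6 genes of CA pyramidal neurons, the principal cells of the neighbouring hippocampal fields. Stress 3 had 0.382 there. In tissue RNA, a change in the number of cells of a type and a change in RNA per cell cannot be told apart. These values are set beside the results they move with.

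RefSeq start sites of assembly GRCr8 were available for 7 of the 8 genes (11 windows), without Zbtb16, and the 250 bases before each start were searched on both strands. The windows are shown because the members share a class of inducer, and the letters searched are those by which their regulators are usually described. The full glucocorticoid response element, AGAACA followed after 3 free bases by its reverse complement TGTTCT, was in none of the 11 windows and in 0.012% of the 33365 distinct windows of all genes. Its half-site AGAACA was also in none (17.5% of all windows), and its spaced core ACANNNTGT was in 1 window of Tsc22d3 (5.8% of all). Both are contained in the full element. The cyclic AMP element TGACGTCA was in none (1.59%), while TGACG, which it contains, was in windows of Cdkn1a, Errfi1, Klf9 and Tsc22d3 (18.2%). The NF-kB motif (GGG, then 2 free bases, then TTTCC) was in the window of Nfkbia (1.3%), and TATAAA in windows of Sgk1, Tsc22d3 and Errfi1 (12.9%). A match describes letters and is not a site of binding, and glucocorticoid elements can lie far from a start. The stretches that hold these matches are printed 5′ to 3′ on the strand of the gene, with the match in capitals, and 2 whole windows are given, that of Nfkbia with its NF-kB motif and that of Ddit4 without any of the 7 motifs. The Sgk1 stretch (chr1:24804852-24804881, minus strand) covers bases -50 to -21 from 1 of 3 annotated starts, the Tsc22d3 stretch (chrX:109065594-109065623, minus strand) bases -193 to -164 from 1 of 3 starts, and the Errfi1 stretch (chr5:166606784-166606813, plus strand) bases -57 to -28, in which CGTCA is TGACG read on the other strand. In the Nfkbia window (chr6:78597073-78597322, minus strand) the capitals lie at bases -31 to -22 and match on the other strand. The Ddit4 window is chr20:28437038-28437287 on the minus strand.
Sgk1: cctggaggctcagggctTATAAAgtcggtc
Tsc22d3: cgctcaggggACACCCTGTgagccagcccc
Errfi1: aCGTCAcgttgtcggctcgcctTATAAAta
Nfkbia: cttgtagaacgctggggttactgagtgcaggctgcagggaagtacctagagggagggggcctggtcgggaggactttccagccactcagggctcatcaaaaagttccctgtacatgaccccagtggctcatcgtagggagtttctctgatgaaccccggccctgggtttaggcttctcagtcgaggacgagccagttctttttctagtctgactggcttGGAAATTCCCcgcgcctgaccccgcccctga
Ddit4: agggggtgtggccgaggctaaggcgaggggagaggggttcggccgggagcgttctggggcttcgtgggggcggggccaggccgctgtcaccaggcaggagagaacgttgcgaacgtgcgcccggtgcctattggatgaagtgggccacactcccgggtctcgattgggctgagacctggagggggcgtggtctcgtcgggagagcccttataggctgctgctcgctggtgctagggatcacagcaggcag

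Over the 6 groups, 2 of the 8 genes differed by limma's moderated F test with Benjamini-Hochberg adjustment over all genes tested, where 6.76% of all genes did: Sgk1 (adjusted p = 5.94e-05, the fourth smallest p of 10804 genes) and Nfkbia (adjusted p = 0.00357). The others had adjusted p = 0.108 (Ddit4), 0.118 (Cdkn1a), 0.124 (Zbtb16), 0.262 (Errfi1), 0.368 (Tsc22d3) and 0.958 (Klf9). In a fit without the agomelatine group, which was added after the values were seen, neither gene passed (Nfkbia adjusted p = 0.155, Sgk1 0.49). The unadjusted p of that F test was 5.73e-05 for Nfkbia and 0.00353 for Sgk1. The share of all genes that passed in it is not given here. The fit thus does not show that these 2 genes differed through the agomelatine group alone. The distance between the highest and the lowest group mean was 0.77 for Sgk1, 0.498 for Cdkn1a, 0.462 for Nfkbia, 0.341 for Zbtb16, 0.301 for Ddit4, 0.256 for Tsc22d3, 0.21 for Errfi1 and 0.0658 for Klf9, with a median of 0.198 over all tested genes. The SD between animals of a group, pooled over groups, was 0.0746 for Klf9, 0.0771 for Nfkbia and 0.079 for Sgk1, below the median of 0.101 over all genes, and 0.19 for Cdkn1a and 0.138 for Tsc22d3, above it. The 8 genes thus ranged from one of the most variable between groups (Sgk1, percentile 99.3 of all genes) to one of the least (Klf9, percentile 1.7).

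**Figure D1:**
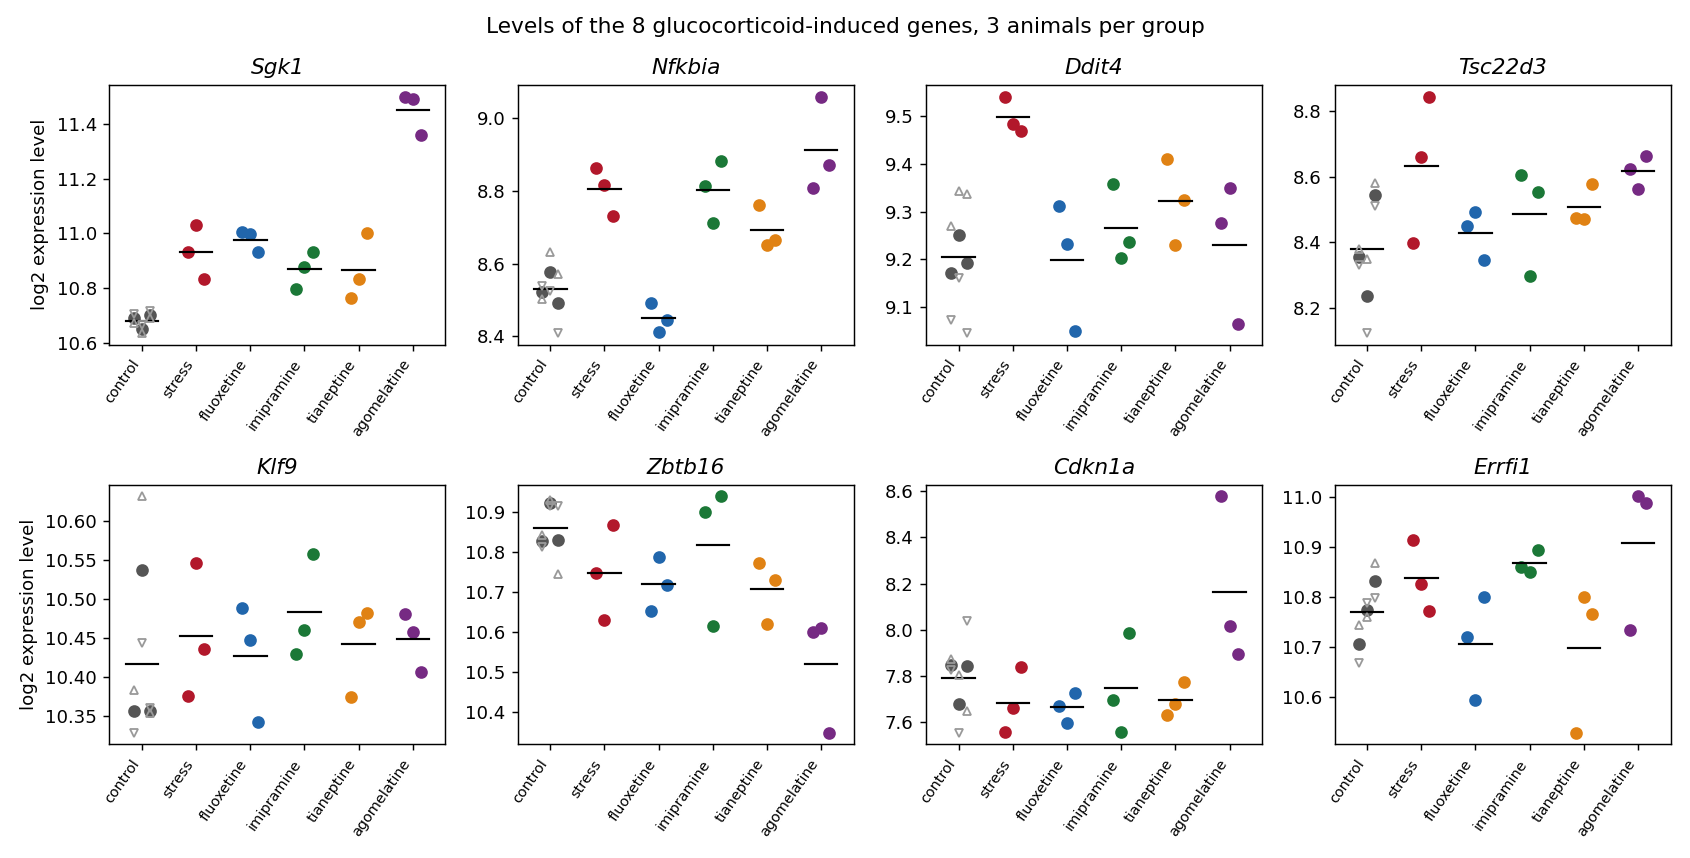
Log2 expression level of each of the 8 genes (vertical axis, a separate range per gene) in the 6 groups (horizontal axis), with 1 filled circle per animal and a bar at the mean of 3 animals; open triangles are the first (pointing up) and repeat (pointing down) arrays of the control animals. Sgk1 is lowest in the 3 control animals and highest in the 3 agomelatine animals, Ddit4 is highest in the 3 stress animals, and the groups of Klf9 overlap.

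Sgk1, the serum- and glucocorticoid-induced kinase, had the widest separation. Its level was 10.69, 10.65 and 10.70 in the 3 control animals, 10.93, 11.03 and 10.83 in the stress animals, 11.00, 11.00 and 10.93 with fluoxetine, 10.80, 10.88 and 10.93 with imipramine, and 10.76, 10.83 and 11.00 with tianeptine. With agomelatine it was 11.50, 11.49 and 11.36. The 3 control animals lay below all 15 others (lowest 10.76), as in 0.12% of all tested genes, and the 3 agomelatine animals above all others (highest 11.03), as in 3.8% of genes. The order of group means was agomelatine, fluoxetine, stress, imipramine, tianeptine and control. Of the 5 neighbouring pairs in that order only agomelatine and fluoxetine differed by the test (0.47 ± 0.07, SE, adjusted p = 0.00044 by limma). The tianeptine mean lay 0.18 above the control mean, a difference that did not pass (adjusted p = 1). The repeat arrays of the control animals read 0.033, 0.028 and 0.025 above the first ones.

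Nfkbia, the NF-kB inhibitor gene, had its lowest means in the control and fluoxetine groups. Control animals had levels of 8.52, 8.58 and 8.49 and fluoxetine animals 8.49, 8.41 and 8.45, while the stress animals had 8.86, 8.82 and 8.73 and the agomelatine animals 8.81, 9.06 and 8.87. Imipramine animals had 8.81, 8.71 and 8.88 and tianeptine animals 8.76, 8.65 and 8.67. The control and fluoxetine animals overlapped each other, and all 6 lay below the 12 animals of the other 4 groups, a split picked after the values were seen that held for 3 of the 10804 genes (0.0278%). The order of means was agomelatine (8.91), stress (8.80), imipramine (8.80), tianeptine (8.69), control (8.53) and fluoxetine (8.45), and no pair of neighbours in that order passed the test. Among the 15 pairs of groups the differences that passed were agomelatine over control (0.38 ± 0.07, SE, adjusted p = 0.00359 by limma) and agomelatine over fluoxetine (0.46 ± 0.07, adjusted p = 0.000823).

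Ddit4, the mTORC1 inhibitor gene, was highest in the stress group. The 3 stress animals had levels of 9.54, 9.48 and 9.47, above all 15 other animals (highest 9.41), which held for 21 of all tested genes (0.194%). Control animals had 9.17, 9.25 and 9.19, fluoxetine animals 9.31, 9.23 and 9.05, imipramine animals 9.36, 9.20 and 9.24, tianeptine animals 9.41, 9.23 and 9.33, and agomelatine animals 9.28, 9.35 and 9.06, so these 5 groups overlapped among themselves. Its control level depended on the array: the first arrays read 9.27, 9.34 and 9.34 and the repeat arrays 9.07, 9.16 and 9.05, lower by a mean of 0.22. Stress minus control was 0.29 with the 2 arrays averaged, 0.18 against the first arrays alone and 0.41 against the repeat arrays alone. The adjusted p was 0.828, 1 and 0.0248 in these 3 fits, so the call of Ddit4 in that comparison rested on which control arrays were used.

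Errfi1, which encodes the inhibitor of ErbB receptors, passed in no pair of groups with the settings used throughout. It had levels of 10.71, 10.77 and 10.83 in control and 10.91, 10.83 and 10.77 in stress animals. Imipramine animals lay close together at 10.86, 10.85 and 10.89, fluoxetine animals had 10.72, 10.59 and 10.80 and tianeptine animals 10.53, 10.80 and 10.77. With agomelatine the levels were 10.73, 11.00 and 10.99, so 1 animal lay within the control range and the other two above every other animal of the study. Without the animal at 10.73, agomelatine 1, the gene passed against fluoxetine (0.29, adjusted p = 0.0316 by limma) and against tianeptine (0.30, adjusted p = 0.0281), and with array weights it passed in fluoxetine minus imipramine (-0.21, adjusted p = 0.047). Each of these pairs passed in that 1 setting, of 30, 30 and 31.

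Of the transcription regulators, Tsc22d3 varied most between animals of a group. The stress animals had 8.40, 8.66 and 8.84 and the control animals 8.35, 8.24 and 8.54, so the groups overlapped although their means differed by 0.26. Fluoxetine animals had 8.45, 8.49 and 8.35, imipramine animals 8.61, 8.30 and 8.55, tianeptine animals 8.47, 8.47 and 8.58, and agomelatine animals 8.62, 8.56 and 8.66. Klf9 stayed between 10.34 and 10.56 in every animal, with group means from 10.42 (control) to 10.48 (imipramine). No comparison of 2 groups passed for Tsc22d3 or Klf9.

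Zbtb16, a zinc finger repressor gene, had its highest mean in control and its lowest with agomelatine. Control animals had 10.83, 10.92 and 10.83, stress animals 10.75, 10.63 and 10.87, fluoxetine animals 10.65, 10.79 and 10.72, imipramine animals 10.90, 10.62 and 10.94, and tianeptine animals 10.77, 10.62 and 10.73. The agomelatine animals had 10.60, 10.61 and 10.35, below all 15 others (lowest 10.62), as in 4.84% of all tested genes. The other 4 groups lay between control and agomelatine, and no neighbouring pair in the order passed the test. Cdkn1a, the cell cycle inhibitor gene, was dim and variable, with 7.85, 7.68 and 7.84 in control, 7.56, 7.66 and 7.84 in stress, 7.67, 7.60 and 7.73 in fluoxetine, 7.70, 7.56 and 7.99 in imipramine and 7.63, 7.68 and 7.78 in tianeptine animals. The agomelatine animals had 8.58, 8.02 and 7.90, and their SD of 0.362 exceeded those of the other groups (0.0662 to 0.217). The animal at 8.58 was agomelatine 1, the one with the choroid plexus score of 3.46.

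The stress group was set against the control group to ask what the stress schedule alone did to these genes. The difference was 0.25 ± 0.07 for Sgk1 (SE, 95% interval 0.11 to 0.39), 0.27 ± 0.07 for Nfkbia (0.12 to 0.42) and 0.29 ± 0.08 for Ddit4 (0.12 to 0.46), and in each the 3 stress animals lay above the 3 control animals. Such a separation on the higher side was seen in 8.02% of all tested genes. Tsc22d3 was at 0.26 ± 0.10 with overlap, Errfi1 at 0.07 ± 0.08, Klf9 at 0.04 ± 0.06, Cdkn1a at -0.11 ± 0.14 and Zbtb16 at -0.11 ± 0.09. In all, 6 of 8 lay above 0, as did 60.4% of all genes, and the median was 0.16 against 0.023 over all genes. By limma 0 of the 8 passed (0% of all genes), with an adjusted p of 0.828 for the first 4, and 4 of 8 had an unadjusted p under 0.05, as 5.4% of all genes had. Equal array medians lowered the differences of Sgk1, Nfkbia and Ddit4 to 0.20, 0.22 and 0.24. Among cell type markers 0 genes passed. Of the granule neuron genes 0 of 4 lay above 0 (median -0.098), of the CA pyramidal neuron genes 6 of 6 (median 0.15, the score of stress 3 being 0.382), of the astrocyte genes 7 of 8 (median 0.10) and of the choroid plexus genes 4 of 4 (median 0.19, the score of stress 1 being 1.08). Astrocyte scores were 0.0831, 0.0333 and 0.106 in the stress and 0.0176, -0.0255 and -0.109 in the control animals, without overlap. Over the 18 animals Ddit4 correlated with that score at r = 0.646 (0.614 with group means subtracted). Sgk1 stood at -0.223 (0.335) and Nfkbia at -0.086 (0.182). Over the 15 animals without agomelatine, r with the granule neuron score was -0.783 for Tsc22d3, -0.495 for Nfkbia, -0.454 for Ddit4 and -0.085 for Sgk1. With group means subtracted over the 18 animals these were -0.561, 0.204, -0.121 and -0.204. With the CA pyramidal neuron score, in the same order and without agomelatine, r was 0.672, 0.19, 0.23 and -0.003. The part of these cells in the values of Sgk1, Nfkbia, Ddit4 and Tsc22d3 was not tested.

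**Figure D2:**
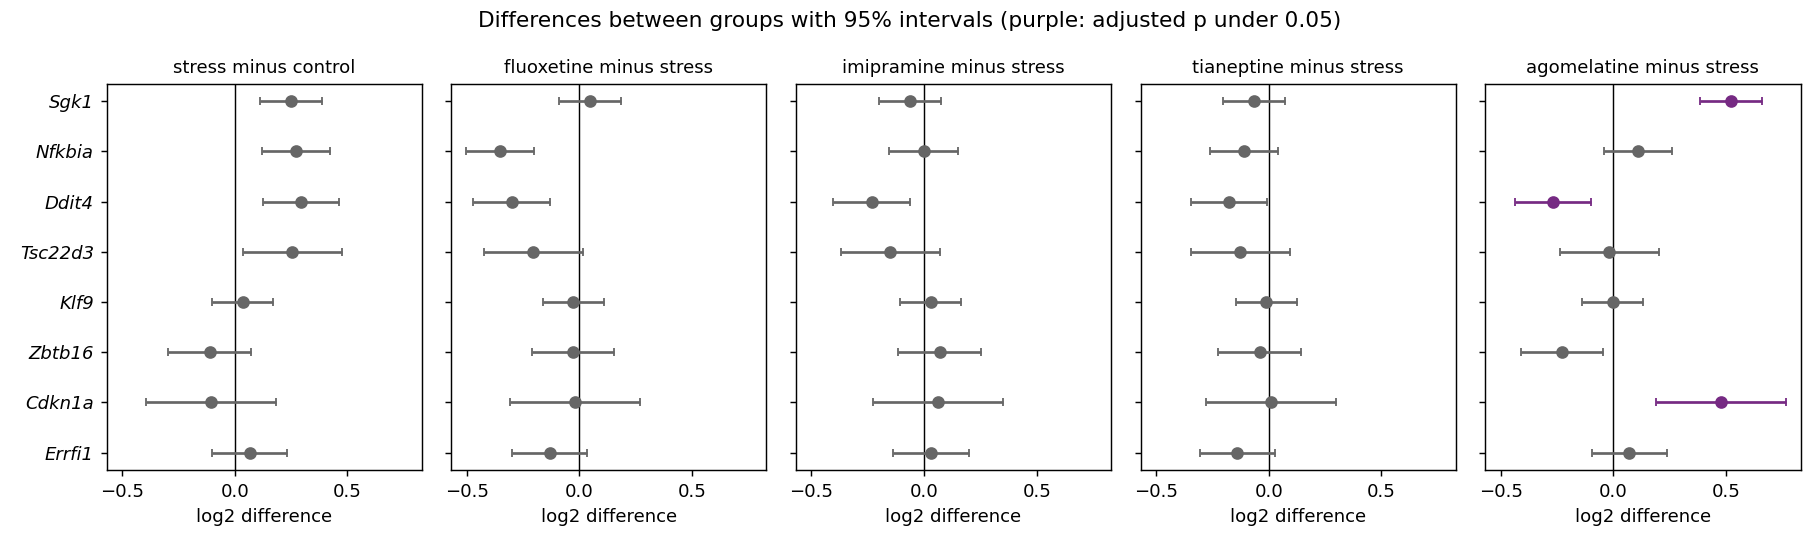
Log2 difference between 2 groups (horizontal axis) for each of the 8 genes (vertical axis) in the 5 main comparisons, with 3 animals per group; points are differences of group means, bars 95% intervals from limma, and purple marks an adjusted p under 0.05. The only purple points are Sgk1, Cdkn1a and Ddit4 in agomelatine minus stress, and the Nfkbia and Ddit4 points of fluoxetine minus stress lie left of 0.

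Fluoxetine was compared with stress alone. Nfkbia was at -0.35 ± 0.07 (SE, 95% interval -0.50 to -0.20) and Ddit4 at -0.30 ± 0.08, both without overlap between the groups, as 5.74% of all genes were on the lower side. Sgk1 was at 0.05 ± 0.07, with an interval from -0.09 to 0.18, so a fall larger than 0.09 lies outside that interval. Tsc22d3 was at -0.21 ± 0.10 and Errfi1 at -0.13 ± 0.08, and 1 of 8 genes lay above 0 (46% of all genes), with a median of -0.081 against -0.009. By limma 0 of 8 passed (0% of all genes), 2 had an unadjusted p under 0.05 (5.01% of all genes), and the adjusted p was 0.4 for Nfkbia, the third smallest p of all genes, and 0.959 for Ddit4. With array weights Nfkbia passed (adjusted p = 0.0445). Of the endothelium and pericyte genes 1 of 9 lay above 0 (median -0.24), with 3 at an unadjusted p under 0.05, and their scores were -0.204, -0.118 and -0.0649 with fluoxetine and 0.155, -0.0106 and 0.0361 in stress, without overlap. Over the 18 animals Nfkbia correlated with that score at r = 0.445 (0.561 with group means subtracted) and Ddit4 at 0.371 (0.249). Of the granule neuron genes 4 of 4 lay above 0 (median 0.16), 0 genes of any marker list passed, and the part of these cells was not tested. The stress animals of this comparison are those set against control above, so the 2 sets of values are not independent.

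In imipramine animals, which received the same dose of 10 mg/kg, Ddit4 was at -0.23 ± 0.08 (SE) against stress, without overlap (12.6% of all genes on the lower side), and Tsc22d3 at -0.15 ± 0.10. Nfkbia was at -0.002 ± 0.072, with an interval from -0.15 to 0.15, and Sgk1 at -0.06 ± 0.07. By limma 0 of 8 passed (0% of all genes; Ddit4 adjusted p = 0.459), 1 had an unadjusted p under 0.05 (10% of all genes), 4 of 8 lay above 0 (40.4% of all genes), and the median was 0.014 against -0.023. Of the astrocyte genes 1 of 8 lay above 0 (median -0.10), of the microglia genes 1 of 9 (-0.14), of the oligodendrocyte genes 2 of 10 (-0.12) and of the endothelium and pericyte genes 2 of 9 (-0.12). None of these genes passed, and their part was not tested.

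In tianeptine animals Ddit4 was at -0.18 ± 0.08 (SE) against stress, again without overlap (6.6% of all genes on the lower side), Errfi1 at -0.14 ± 0.08, Tsc22d3 at -0.13 ± 0.10, Nfkbia at -0.11 ± 0.07 and Sgk1 at -0.07 ± 0.07. By limma 0 of 8 passed (0% of all genes; Ddit4 adjusted p = 0.943), 1 had an unadjusted p under 0.05 (5.06%), 1 of 8 lay above 0 (42.4% of all genes), and the median was -0.0885 against -0.0163. Of the oligodendrocyte genes 0 of 10 lay above 0 (median -0.13) and of the microglia genes 8 of 9 (median 0.16), with 0 passing, and their part was not tested. Every Ddit4 value with these 3 drugs lay below the 3 stress animals, which the 3 comparisons share. Fluoxetine minus imipramine and fluoxetine minus tianeptine, at equal doses, were -0.35 ± 0.07 and -0.24 ± 0.07 for Nfkbia (adjusted p = 0.269 and 0.998 by limma), and in these comparisons and imipramine minus tianeptine 0 of 8 passed (0% of all genes). With array weights the first of these passed (adjusted p = 0.00545), and it passed in 1 of its 31 settings.

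Agomelatine, given at 40 mg/kg, was the group in which members changed against stress. Sgk1 rose by 0.52 ± 0.07 (SE, 95% interval 0.38 to 0.66, 1.43 times in signal, adjusted p = 0.000202 by limma), Cdkn1a rose by 0.48 ± 0.14 (1.39 times, adjusted p = 0.0319) and Ddit4 fell by 0.27 ± 0.08 (adjusted p = 0.0396). That made 3 of 8, where 10.8% of all genes passed (4.18% higher, 6.58% lower). An unadjusted p under 0.05 was found for 4 of 8 (27% of all genes), 4 of 8 lay above 0 (43.4% of all genes), and the median was 0.033 against -0.025. Sgk1 and Cdkn1a did not overlap between the groups on the higher side (9.36% of all genes) and Ddit4 on the lower side. Zbtb16 was at -0.23 ± 0.09 without overlap (adjusted p = 0.0953), as 15.9% of all genes were on the lower side, Nfkbia at 0.11 ± 0.07, Errfi1 at 0.07 ± 0.08, Tsc22d3 at -0.02 ± 0.10 and Klf9 at -0.004 ± 0.065. The call of Sgk1 held in all 30 alternative settings (adjusted p from 0.000113 to 0.0126). That of Ddit4 ended in 11 of 30, among them equal array medians (-0.22, adjusted p = 0.0813) and a fit of these 2 groups alone (adjusted p = 0.144), and that of Cdkn1a in 6 of 29. The single animals whose removal ended the call of Ddit4 were stress 1 (adjusted p = 0.101), stress 2 (0.0895), stress 3 (0.0762), agomelatine 1 (0.0559), agomelatine 3 (-0.19, 0.146) and imipramine 3 (0.0519). For Cdkn1a they were stress 1 (0.101), stress 2 (0.0888) and agomelatine 1, without which it was at 0.27 (0.127).

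Cell type markers differed between these groups as well. All 10 oligodendrocyte genes tested rose in agomelatine against stress (median 0.52), among them Opalin (1.18 ± 0.11, SE, adjusted p = 1.11e-05), Mog (0.65 ± 0.08, adjusted p = 0.000202) and Aspa (0.56 ± 0.09, adjusted p = 0.00123). Of 6 CA pyramidal neuron genes 3 rose (Man1a1 0.66, Neurod6 0.77 and Wfs1 0.76), and of 4 granule neuron genes 2 fell (C1ql2 -0.55 and C1ql3 -0.24). Of the astrocyte genes 0 of 8 lay above 0 (median -0.18) and 1 fell. Astrocyte scores ran from -0.254 to 0.00146 with agomelatine and from 0.0333 to 0.106 in stress, without overlap. Over the 18 animals Sgk1 correlated with the oligodendrocyte score at r = 0.867, over the 15 animals without agomelatine at 0.225, and with group means subtracted at 0.366. For Cdkn1a these were 0.795, -0.005 and 0.574. Correlations with other scores were also high over the 18 animals. Sgk1 stood at r = -0.841 with the granule neuron and 0.73 with the CA pyramidal neuron score (-0.204 and -0.056 with group means subtracted). In the same order Cdkn1a stood at -0.778 and 0.761 (-0.612 and 0.565). Cdkn1a stood at 0.688 with the choroid plexus score (0.635) and at 0.691 with that of 5 meninges genes (0.577). Over the 15 animals without agomelatine these 2 values were -0.405 and -0.034. With the granule neuron and CA pyramidal neuron scores Cdkn1a then stood at -0.362 and 0.248, and Sgk1 at -0.085 and -0.003. The values with group means subtracted include agomelatine 1, which had the highest Cdkn1a level and the choroid plexus score of 3.46. Ddit4 correlated with the oligodendrocyte score at -0.123 over the 18 animals (0.056 with group means subtracted). With the astrocyte score it stood at 0.646 (0.614). These correlations are descriptions over animals that share a group, and the part of these cells in the changes of Sgk1, Cdkn1a and Ddit4 was not tested. Of the choroid plexus genes 0 of 4 passed, with 0 at an unadjusted p under 0.05. Without agomelatine 1, the animal with the score of 3.46, Sgk1 was at 0.49 against stress (adjusted p = 0.00141).

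**Figure D3:**
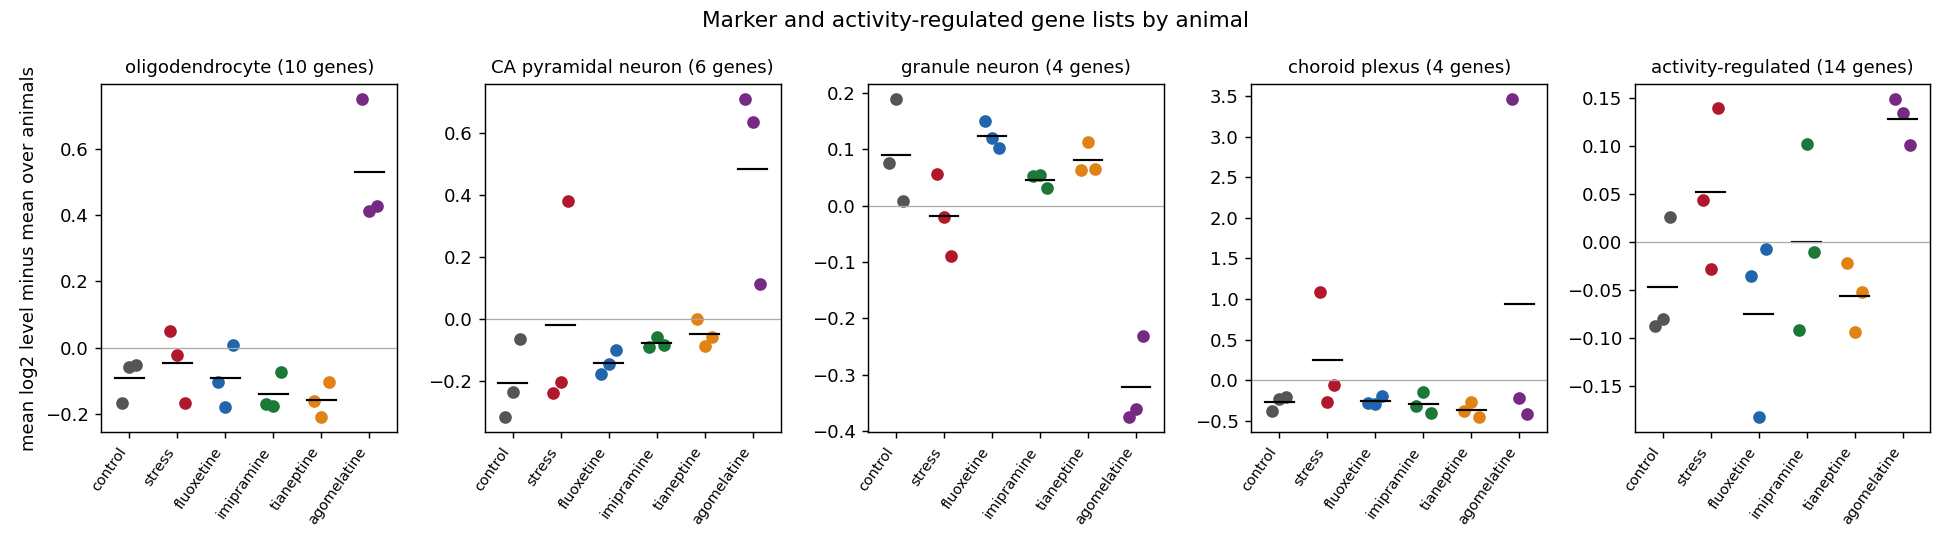
Scores of 5 gene lists by animal: the mean over a list's genes of the log2 level minus that gene's mean over the 18 animals (vertical axis, a separate range per list), by group (horizontal axis), with 1 circle per animal and a bar at the group mean. The agomelatine animals stand above all others for oligodendrocyte genes and below them for granule neuron genes, and 1 agomelatine animal has a choroid plexus score of 3.46.

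Against control, members passed in the agomelatine group alone of the 4 drug groups. Agomelatine minus control was 0.77 ± 0.07 (SE) for Sgk1, or 1.71 times in signal, with the smallest p of all genes tested (adjusted p = 6.05e-06 by limma), 0.38 ± 0.07 for Nfkbia (adjusted p = 0.00359) and -0.34 ± 0.09 for Zbtb16 (adjusted p = 0.0205). That made 3 of 8, where 9.59% of all genes passed (5.28% higher, 4.31% lower). All 10 oligodendrocyte genes and 3 of 6 CA pyramidal neuron genes rose here too, and 3 of 4 granule neuron genes fell. Sgk1 passed in each of 30 alternative settings. Nfkbia did not pass in a fit of these 2 groups alone (adjusted p = 0.0543), nor did Zbtb16 (0.0506), which also failed with array weights (0.0919), without agomelatine 3 (0.0701) and without control 2 (0.0985). Fluoxetine minus control was 0.30 ± 0.07 for Sgk1 (adjusted p = 0.629, the third smallest p) and -0.08 ± 0.07 for Nfkbia. Imipramine minus control was 0.19 ± 0.07 and 0.27 ± 0.07, and tianeptine minus control 0.18 ± 0.07 and 0.16 ± 0.07. By limma 0 of 8 passed for fluoxetine (0% of all genes), imipramine (0.0185%) and tianeptine (0%), with 1, 2 and 2 at an unadjusted p under 0.05 (4.89%, 8.27% and 4.04% of all genes). Sgk1 passed for fluoxetine and Nfkbia for imipramine with array weights, and Nfkbia for imipramine also against the repeat control arrays.

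Agomelatine was also set against the other drugs, at an unequal dose. Sgk1 was higher by 0.47 than with fluoxetine (adjusted p = 0.00044 by limma, 11.8% of all genes passing), by 0.58 than with imipramine (6.99e-05, 9.39%) and by 0.59 than with tianeptine (7.55e-05, 13.5%), and these 3 calls held in each of 30 alternative settings. Cdkn1a was higher than with fluoxetine by 0.50 (adjusted p = 0.0255) and than with tianeptine by 0.47 (0.0311), and these calls held in 25 and 24 of 29 settings. Both ended without agomelatine 1 (0.106 and 0.148) and in a fit of the groups compared alone (0.155 and 0.116). The first also ended without fluoxetine 1 (0.0581) or fluoxetine 2 (0.0786), and the second with array weights (0.0706) and without tianeptine 1 (0.103) or tianeptine 2 (0.0794). Zbtb16 was lower than with imipramine by 0.30 (-0.30 ± 0.09, SE, adjusted p = 0.0383), which held in 24 of 30 settings. It ended with array weights (0.0586), with the replicate block (0.0511), in a fit of the 2 groups alone (0.126) and without agomelatine 3 (0.125), imipramine 1 (0.139) or imipramine 3 (0.166). Nfkbia against tianeptine, which did not pass, did so in 3 of 30 settings (lowest adjusted p = 0.0373), and Cdkn1a against imipramine in 4 of 29 (0.0169).

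Because Sgk1 separated the control animals from all others, the mean of the 5 stress-exposed groups was set against control, a comparison added after the values were seen. Sgk1 was at 0.34 ± 0.05 (SE, adjusted p = 0.0294 by limma) and was the only 1 of 10804 genes to pass (0.00926%). The other 7 genes ranged from -0.16 (Zbtb16) to 0.20 (Nfkbia). The comparison contains the agomelatine animals, and with the other 4 stress-exposed groups alone Sgk1 was at 0.23 ± 0.05 (adjusted p = 0.708), all 12 animals still lying above the 3 control animals, as in 0.379% of all genes. The call with all 5 groups was kept in 16 of 30 settings. It ended when array medians were made equal (adjusted p = 0.121), without the variance trend (0.0788), with the replicate block (0.0904) and without control 1 (0.135), control 2 (0.728) or control 3 (0.18). It also ended without any 1 of stress 1, agomelatine 1 and 2, fluoxetine 1 and 2, imipramine 2 and 3 or tianeptine 2 (0.0523 to 0.0697). The difference lay between 0.32 and 0.35 in all 30 settings.

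Other genes that glucocorticoids induce or repress in many tissues were taken as a list of 30, of which 24 were tested. In stress against control 18 of 24 lay above 0 (60.4% of all genes), with a median of 0.058 against 0.023, and 0 passed by limma, with 5 at an unadjusted p under 0.05 (5.4% of all genes). Dusp1, which encodes a phosphatase of MAP kinases, had the smallest p at 0.50 ± 0.11 (SE, adjusted p = 0.728). Fkbp5, which encodes a co-chaperone that lowers glucocorticoid receptor affinity and is named after its values were seen, was at 0.17 ± 0.12. With fluoxetine, imipramine and tianeptine against stress Dusp1 was at -0.57, -0.61 and -0.69 (adjusted p = 0.4, 0.33 and 0.0891), and 0 of 24 passed in each, with 4, 2 and 6 at an unadjusted p under 0.05 (5.01%, 10% and 5.06% of all genes). With agomelatine 0 of 24 rose (4.18% of all genes) and 4 fell (6.58%): the metallothionein gene Mt1 (-0.38, adjusted p = 0.00515), the sestrin gene Sesn1 (-0.32, 0.00675), the syndecan gene Sdc4 (-0.32, 0.00832) and Arrdc2 (-0.32, 0.0179). Fkbp5 was at -0.27 ± 0.12 (adjusted p = 0.162) there. In agomelatine against control Pdk4, which encodes a kinase that inhibits pyruvate dehydrogenase, rose (0.40, adjusted p = 0.014; 5.28% of all genes) and Sesn1 (-0.34, 0.00549) and Arrdc2 (-0.39, 0.00692) fell (4.31%).

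Receptors and chaperones of the hormone were read as a list of 12 tested genes. The mineralocorticoid receptor gene Nr3c2 was at -0.20 ± 0.06 (SE) in stress against control (adjusted p = 0.828 by limma). There 0 of 12 passed (0% of all genes) and 2 had an unadjusted p under 0.05 (5.4% of all genes). In agomelatine against stress 2 of 12 rose (4.18% of all genes), Hsp90aa1 (0.32, adjusted p = 0.00569) and Ptges3 (0.25, adjusted p = 0.0338), which encode the chaperone HSP90 and its co-chaperone p23 of the receptor complex. Hsp90aa1 also rose against control (0.31, adjusted p = 0.0073), as 1 of 12 genes (5.28% of all genes). Fkbp4, the gene of another co-chaperone, was at -0.25 ± 0.08 with imipramine and -0.29 ± 0.08 with tianeptine (adjusted p = 0.459 and 0.874), and Abcb1a, the gene of an efflux pump that limits entry of corticosteroids into the brain, at -0.27 ± 0.10 with fluoxetine (adjusted p = 0.959).

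The 4 lists of genes of the pathways on which the members act held 34 tested genes. In agomelatine against stress 3 of 34 passed by limma (8.82%, against 10.8% of all genes). Of all genes 43.4% lay above 0 there and 27% had an unadjusted p under 0.05. Of 6 genes of SGK kinases and their substrates Ndrg2 fell (-0.21, adjusted p = 0.0269) and 0 of 6 lay above 0. Of 9 NF-kB pathway genes 0 passed, with 1 at an unadjusted p under 0.05. Of 9 genes that control mTORC1 0 passed, with 4 at an unadjusted p under 0.05 and 1 of 9 above 0. The mTORC1 list lay above 0 in 8 of 9 members in stress against control (median 0.056), as did 60.4% of all genes (median 0.023). In tianeptine against stress 0 of 9 lay above 0 (median -0.053), against 42.4% of all genes (median -0.016). These 2 comparisons share the stress animals. Akt1s1, which encodes an mTORC1 inhibitor, was at -0.25 ± 0.07 with imipramine (adjusted p = 0.459). Of 10 genes of ErbB receptors, ligands and inhibitors 2 fell, the ligand gene Hbegf (-0.42, adjusted p = 0.0219) and the inhibitor gene Spry2 (-0.25, adjusted p = 0.0194). In agomelatine against control 3 of 34 passed as well (8.82%, against 9.59% of all genes): Nedd4l, which encodes a ubiquitin ligase that SGK1 phosphorylates, fell (-0.23, adjusted p = 0.0329), and the receptor genes Erbb3 (0.46, adjusted p = 0.0356) and Erbb4 (0.50, adjusted p = 0.0154) rose.

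A further 4 lists, of relatives of the members and of activity-regulated genes, held 38 tested genes, of which 4 passed in agomelatine against stress (10.5%, against 10.8% of all genes). Of 10 further Krüppel-like factor genes Klf16 fell (-0.30, adjusted p = 0.0288 by limma), and of the other 3 genes of the TSC22 family 0 passed, with 1 at an unadjusted p under 0.05. Of 11 genes of cell cycle inhibitors and p53 targets, the group of Cdkn1a, the cyclin gene Ccng1 rose (0.21, adjusted p = 0.039) and the sestrin gene Sesn3 fell (-0.22, adjusted p = 0.0105). Of 14 activity-regulated genes, which neuronal firing induces, Homer1 rose (0.46, adjusted p = 0.011). In agomelatine against control 6 of 38 passed (15.8%, against 9.59% of all genes). Klf16 (-0.36, adjusted p = 0.0134) and Sesn3 (-0.20, adjusted p = 0.0184) fell, and 4 of the 14 activity-regulated genes rose, among them the nuclear receptor genes Nr4a1 (0.62, adjusted p = 0.00544) and Nr4a2 (0.57, adjusted p = 0.0106) and Homer1 (0.48, adjusted p = 0.00966). In the 4 main comparisons other than agomelatine against stress 0 genes of these 4 lists passed by limma (0% of all genes in each). An unadjusted p under 0.05 was found for 0 to 5 genes of a list. Of all genes 5.4% had one in stress against control. The shares were 5.01%, 10% and 5.06% with fluoxetine, imipramine and tianeptine against stress. Those with the smallest p in stress against control were Nr4a1 (0.47 ± 0.13) among the activity-regulated and Cdk2 (0.23 ± 0.08) among the cell cycle genes, both with adjusted p = 0.828.

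The 8 genes did not form 1 pattern over the animals. Among their 28 pairs Pearson's r ran from -0.696 (Sgk1 and Zbtb16) to 0.632 (Sgk1 and Cdkn1a), with a median of 0.18 and 20 pairs above 0 (Spearman's rho from -0.696 to 0.637, median 0.19). These values carry the differences between groups. With group means subtracted r ran from -0.375 to 0.521 with a median of 0.114, Sgk1 and Zbtb16 stood at -0.038, and the pairs with the highest r were Ddit4 and Zbtb16 (0.521), Sgk1 and Klf9 (0.518), Zbtb16 and Cdkn1a (0.501) and Nfkbia and Ddit4 (0.496). They are given as descriptions over 18 animals that share groups and array normalisation, with no test.

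**Figure D4:**
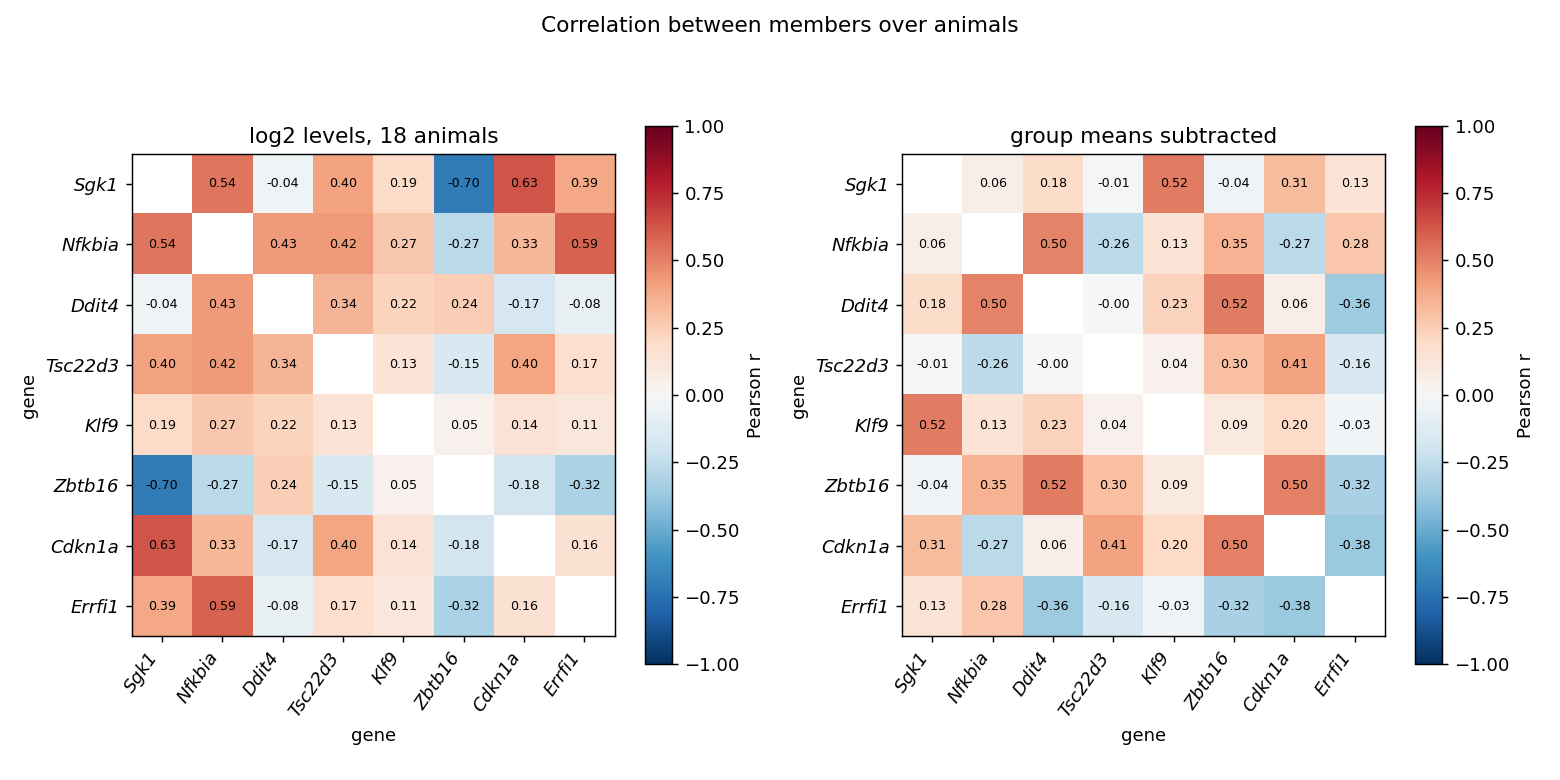
Pearson's r between each pair of the 8 genes over 18 animals (rows and columns are genes, colour and number give r), for log2 levels (left) and after subtracting group means (right). Sgk1 and Zbtb16 have the lowest r on the left (-0.70) and -0.04 on the right.

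Among all tested genes, those most like Sgk1 over the 18 animals were Amph (r = 0.926), Prkca (0.899) and Magi3 (0.894), which encode amphiphysin, a protein kinase C and a scaffold protein. With group means subtracted the same genes had r of 0.233, 0.25 and 0.066, so little of the likeness was left between animals of a group. Genes most like Nfkbia were Zfp189 (0.784), Ercc3 (0.758) and Fmo2 (0.758), with 0.496, 0.052 and 0.577 after subtraction. Those like Cdkn1a were Gsn (0.89), Fcf1 (0.886) and Cd9 (0.878), with 0.827, 0.829 and 0.85 after subtraction. The subtracted values still hold the wide spread of Cdkn1a within the agomelatine group. Over the 15 animals without agomelatine the same genes had 0.456, 0.634 and 0.295. Those like Zbtb16 were Nle1 (0.826), Gpc3 (0.799) and Slc17a9 (0.778).

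Genes like Ddit4 were Zfp276 (0.825), Gldc (0.816), the glycine decarboxylase gene, and Rab11fip4 (0.814), which kept 0.72, 0.769 and 0.751 with group means subtracted, so they varied with Ddit4 between animals of the same group. Lmtk2 (0.837), Tomm34 (0.81) and Ermp1 (0.803) were most like Tsc22d3, with 0.84, 0.773 and 0.761 after subtraction. For Errfi1 they were Tnnt2 (0.804), Ubxn2b (0.752) and Ppid (0.721), and for Klf9 Pi4k2a (0.724), Htatip2 (0.698) and Actr10 (0.697), the lowest values of the 8 genes. No member was among the 3 genes most like another member. These genes were picked as the highest correlations among all tested genes, and the values are a description with no test.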

How the data were processed

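Each deposited array column holds log2 signals, 1 per probe set. The submitters' processing notes name RMA, which corrects background, makes arrays equal in distribution and summarises probes, and Affymetrix Expression Console 1.2. The array medians lay between 7.987 and 8.103. Arrays give no read depth, and the number of animals limits precision. No genome build of the array design is named in those notes, and no probe coordinates are printed.

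Of 29214 probe sets, 15310 had 1 gene symbol in the platform annotation, 323 several and 13581 none here, and 15279 matched RefSeq (GRCr8) by gene number. First and repeat arrays of a control animal were averaged. Where a gene had several probe sets, the brightest on average was used, and genes under the 25th percentile (log2 7.165) were left out, leaving 10804. Group means over 18 animals were fitted with limma 3.58.1 under R 4.3.3 (12 residual degrees of freedom, eBayes with trend), with Benjamini-Hochberg adjustment over all tested genes, and a gene rose, fell or changed at an adjusted p under 0.05. The script was tested on simulated data. Intervals are 95% intervals of limma. The fit assumes the same spread in all groups. Control values average 2 arrays per animal and the others rest on 1 array, so this may not hold. Averaging may also narrow the control range in statements on overlap, which was not tested.

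The members and lists were chosen with earlier results of these data known. Of each list, genes that passed were named, at most 3 per comparison by smallest p, or otherwise the 1 or 2 with the smallest p; Arrdc2 and Fkbp5 were added after their values were seen, and not every gene the rule allows is printed. Alternatives were the control arrays used, all 21 arrays with animal as a random block, the filter, equal array medians, quantile normalisation once more, the mean over probe sets, array weights, no variance trend, a replicate block, only the groups compared, and each animal left out. The fit without agomelatine, the comparisons that pool groups and the repeats of comparisons between drugs were added after the values were seen.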

Additional observations from a re-analysis of the deposited data

How the results depend on the processing

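Of 1222 comparisons of a result with an alternative, 1158 kept direction and side of the threshold, 45 changed sign, 17 lost a call and 2 gained one. Precision was limited by 3 animals a group. The cause of the changes below was not tested. Tsc22d3 and Cdkn1a were left out by the 50th percentile filter.

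With repeat control arrays alone the count of the 8 genes that passed was 1 for stress minus control (Ddit4), 1 for imipramine minus control (Nfkbia), 2 for all stress-exposed minus control (Nfkbia and Sgk1) and 1 for the same without agomelatine (Sgk1). With array weights it was 1 for fluoxetine minus stress (Nfkbia), 1 for agomelatine minus stress (Sgk1), 1 for fluoxetine minus control (Sgk1) and 1 for imipramine minus control (Nfkbia). With the groups compared alone it was 1 for agomelatine minus stress and 1 for agomelatine minus control, Sgk1 in both. Without the agomelatine group the F test called 0. For all stress-exposed minus control it was 0 with equal array medians and 0 without the variance trend. Leaving out 1 animal gave 1 to 3 for agomelatine minus stress and 0 to 1 for all stress-exposed minus control. The share of all genes that passed in each of these settings is not given here. These counts therefore do not tell whether a gained or lost call was particular to the 8 genes.

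The replicate numbers did not pair the animals: of 15 group pairs, 0 had all correlations of same-numbered animals over 0.1 (-0.3 to 0.292). With the replicate block the count for all stress-exposed minus control fell from 1 to 0 (Sgk1 adjusted p = 0.0904 by limma), and Sgk1 in agomelatine minus stress had an adjusted p of 0.000629.

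Small differences changed sign. Equal array medians gave -0.0178 for Klf9 in stress minus control; 0.0133, 0.01 and 0.0197 for Klf9, Zbtb16 and Cdkn1a with fluoxetine; 0.0428 for Nfkbia with imipramine; 0.0365 and 0.0058 for Klf9 and Zbtb16 with tianeptine; and 0.031 and 0.045 for Tsc22d3 and Klf9 with agomelatine, all against stress. Quantile normalisation gave -0.0031 for Klf9 in stress minus control, 0.0425 for Nfkbia with imipramine, 0.0171 and -0.017 for Klf9 and Cdkn1a with tianeptine, and 0.0156 and 0.0078 for Tsc22d3 and Klf9 with agomelatine. First control arrays gave -0.0033 for Klf9 in stress minus control, and array weights 0.0047 for Zbtb16 with fluoxetine and 0.0196 for Nfkbia with imipramine.

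Leaving out 1 animal gave ranges that crossed 0. They were -0.0108 to 0.0962 for Klf9 in stress minus control. With fluoxetine they were -0.0022 to 0.0953 for Sgk1, -0.0647 to 0.0203 for Klf9, -0.089 to 0.03 for Zbtb16 and -0.084 to 0.056 for Cdkn1a. With imipramine they were -0.0418 to 0.0437 for Nfkbia, -0.0083 to 0.0767 for Klf9, -0.057 to 0.156 for Cdkn1a and -0.0027 to 0.0688 for Errfi1. With tianeptine they were -0.0487 to 0.0363 for Klf9, -0.1003 to 0.0187 for Zbtb16 and -0.0543 to 0.0857 for Cdkn1a. With agomelatine they were -0.136 to 0.087 for Tsc22d3 and -0.0423 to 0.0427 for Klf9.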
